A study of Mus musculus with 4 samples.

Results

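The chromatin around Myc was examined in mouse acute myeloid leukemia (AML) cells, a cancer of immature white blood cells, by DNase-seq. In that assay the enzyme DNase I cuts nuclear DNA where it is accessible, and a dense patch of sequenced cut ends is called as a peak. The cells were C57BL/6J AML cells that the labels class as differentiated in vitro, with sex not collected and age and developmental stage unknown. No treatment, genotype change or control is named in the labels, which also do not say how the leukemia arose. Biological replicates 1 and 2 each had 2 libraries and carried the same donor record, so their spread may be partly technical. Replicate 1 had 236802 deposited peaks and replicate 2 had 67564, each list made by the authors from the pooled libraries of its replicate. A replicate is therefore 1 list, no spread within a replicate can be given, and no test between samples was possible.

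The region ran from 100 kb upstream to 2 Mb downstream of the annotated start of Myc (ENSMUSG00000022346.15), which lies on the plus strand at chr15:61985391-61990374 of mm10 in GENCODE M21. Every deposited peak in that window was taken, whatever its score. There were 183 peaks of 236754 in replicate 1 and 40 of 67559 in replicate 2, with repeated entries counted once. That is 0.0773% of the first list and 0.0592% of the second. Below, a peak is called shared when 1 bp or more of it falls in a peak of the other replicate, and its place is the distance of its centre from the Myc start. A promoter is sequence within 1 kb of any annotated transcript start of a protein-coding gene. Each peak is a window of 150 bp with a deposited score, of 1 to 150 for replicate 1 and of 2 to 148 for replicate 2. No source used here says how that score was made, so scores are compared only within a list. A mean percentile is the average of the ranks of a shared peak in its own 2 lists, where 100 is the top.

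Myc encodes a transcription factor that pairs with Max at E-box DNA and drives growth, ribosome production and proliferation. In blood stem cells and in leukemia its transcription depends on enhancers that lie far downstream, beyond the noncoding gene Pvt1 and before the gasdermin genes, known as the blood enhancer cluster. In mouse AML cells that cluster is known to be occupied by the SWI/SNF remodeling ATPase Brg1.

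Sequences of 7 far downstream shared windows are shown. They were chosen for the widest group of 3 neighbouring shared sites and the strongest far site. The others hold the one AP-1 site and the 2 sites before the gasdermin genes with CTCF letters. All are read on the plus strand of chromosome 15, mm10, from the RefSeq copy of the assembly, and capitals mark letters that match one of 13 motifs, or the short CTCF core, on either strand. Shorter ETS and RUNX cores, counted further on, are not marked. The windows are printed at their replicate 1 coordinates. The replicate 2 windows of these sites lack the AP-1 letters at 1680.3 kb and the STAT5 letters at 1631.6 kb.
Window at 1617.9 kb, chr15:63603256-63603405, capitals in order C/EBP, MEIS and MYB: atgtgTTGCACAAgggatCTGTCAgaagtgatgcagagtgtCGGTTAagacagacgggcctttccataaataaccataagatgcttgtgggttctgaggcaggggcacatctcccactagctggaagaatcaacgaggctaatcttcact
Window at 1626.0 kb, chr15:63611276-63611425, no match: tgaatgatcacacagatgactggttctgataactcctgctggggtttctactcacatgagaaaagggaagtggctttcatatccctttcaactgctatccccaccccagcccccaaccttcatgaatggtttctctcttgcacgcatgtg
Window at 1631.6 kb, chr15:63616936-63617085, capitals in order STAT5, PU.1-type ETS, MEIS and GC box: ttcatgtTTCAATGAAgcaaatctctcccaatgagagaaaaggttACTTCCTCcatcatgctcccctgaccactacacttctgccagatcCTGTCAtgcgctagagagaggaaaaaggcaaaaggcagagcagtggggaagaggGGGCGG
Window at 1667.3 kb, chr15:63652656-63652805, capitals for the short CTCF core: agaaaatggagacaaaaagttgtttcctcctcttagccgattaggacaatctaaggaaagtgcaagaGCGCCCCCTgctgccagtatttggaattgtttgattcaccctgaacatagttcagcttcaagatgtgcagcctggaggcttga
Window at 1680.3 kb, chr15:63665636-63665785, capitals for AP-1: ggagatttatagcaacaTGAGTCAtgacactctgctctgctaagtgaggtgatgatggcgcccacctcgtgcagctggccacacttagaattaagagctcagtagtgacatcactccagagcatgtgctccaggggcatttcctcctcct
Window at 1719.5 kb, chr15:63704816-63704965, capitals in order MEIS and MYB: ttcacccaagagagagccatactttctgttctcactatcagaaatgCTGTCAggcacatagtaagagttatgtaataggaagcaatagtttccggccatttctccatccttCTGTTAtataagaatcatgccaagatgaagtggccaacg
Window at 1786.4 kb, chr15:63771696-63771845, capitals for the CTCF core: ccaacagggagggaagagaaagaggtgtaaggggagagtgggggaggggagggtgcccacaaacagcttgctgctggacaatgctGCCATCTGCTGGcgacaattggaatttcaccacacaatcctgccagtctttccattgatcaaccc
The first 3 lie within 13.83 kb of each other and share no motif other than MEIS, which the middle one lacks.

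Nearly every Myc region peak of the shorter list had a counterpart. In replicate 1, 38 of 183 peaks were shared (20.8%, 95% Wilson interval 15.5% to 27.2%), against 26.1% of the whole list. In replicate 2, 39 of 40 were shared (97.5%, 87.1% to 99.6%), against 91.9% of the whole list. The intervals cover counting error only and treat peaks as independent. The shares of the region lay near those of all peaks in both lists.

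Scores in the region ran from 23 to 148 in replicate 1, with a median of 68, and from 12 to 72 in replicate 2, with a median of 26. Over the whole lists the medians were 74 and 35. The 38 shared windows had a median replicate 1 score of 108 and a lowest score of 70, whereas the 145 others had a median of 56 and reached 130. The share with a counterpart was higher at higher scores. None of the 56 region peaks scored 1 to 49 was shared, against 1.41% of all such peaks of replicate 1. For scores of 50 to 79 the region had 4 of 66 shared (6.06%), against 5.73% overall. For scores of 80 to 109 it had 16 of 34 (47.1%), against 28.6%. For scores of 110 to 139 it had 12 of 21 (57.1%), against 68.8%, and for scores of 140 to 150 it had 6 of 6 (100%), against 95.8%. Strong windows around Myc thus recurred in replicate 2 at rates on both sides of those for windows of like score elsewhere.

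**Figure D1:**
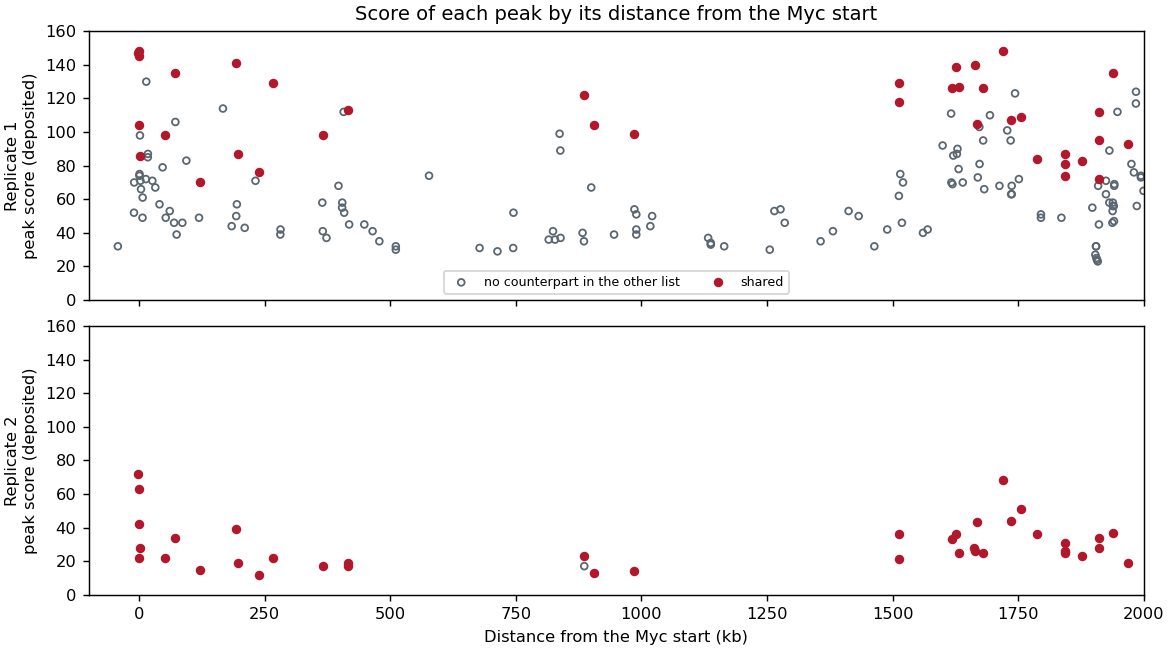
Each point is 1 deposited peak, with its distance from the Myc start in kb on the horizontal axis and its deposited score on the vertical axis, for replicate 1 (top) and replicate 2 (bottom); filled points are shared. All shared windows of replicate 1 score 70 or more, and the highest scores of either list lie next to Myc and at 1719.5 kb.

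List length bears on these shares. With replicate 1 held to its 67559 best scored peaks, the lowest of which scored 100, the region kept 35 of its peaks, and 25 of the 40 replicate 2 peaks (62.5%) still had a counterpart, against 70.9% of all replicate 2 peaks. Between 1500 and 1800 kb downstream 12 of 13 replicate 2 peaks kept one. Those limits were set after the bins and scores were seen, around strong shared windows, so nothing is read from that share.

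At Myc itself 8 peaks of replicate 1 and 4 of replicate 2 lay within 1 kb of an annotated start of one of its 8 transcripts, and 4 of those 8 were shared. The strongest lay in exon sequence just past the main start, at chr15:61985456-61985605, with a score of 148 in replicate 1 and 63 in replicate 2 and a mean percentile of 90.8. The window just upstream, at -0.2 kb, scored 145 and 42 in the same order. The window at -0.9 kb scored 104 and 22. These 3 lie within 1 kb of the main start, on either side of it, and the replicate 1 hotspot that holds them is the widest of the region.

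The fourth shared window at Myc lay 2.4 kb inside the gene, in an exon near the start of a shorter annotated transcript, and scored 86 in replicate 1 and 28 in replicate 2. Between it and the main start, replicate 1 alone had windows at 0.7, 1.0 and 1.8 kb, with scores of 74, 75 and 98. Another strong shared window lay just outside the 1 kb limit, at -1.9 kb (chr15:61983456-61983605), with scores of 147 and 72, the highest replicate 2 score of the region. It lies next to the start of Gm37947, an annotated minus-strand transcript of unknown function. Its mean percentile of 92.7 exceeded that of the Myc promoter window.

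Hotspots, which are the wider regions of enriched cutting that the authors deposited with a −log10 q value, were broadest at Myc. In replicate 1 a single hotspot of 4205 bp ran from -1.2 to 3.0 kb, and in replicate 2 a hotspot of 814 bp covered the main start, at chr15:61984924-61985737. Both carried the ceiling value of 100, and values between 6 and 100 did not occur in the region. No other hotspot of the region reached 1.5 kb in replicate 1, where the next widest was 1471 bp, or exceeded 484 bp in replicate 2.

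**Figure D2:**
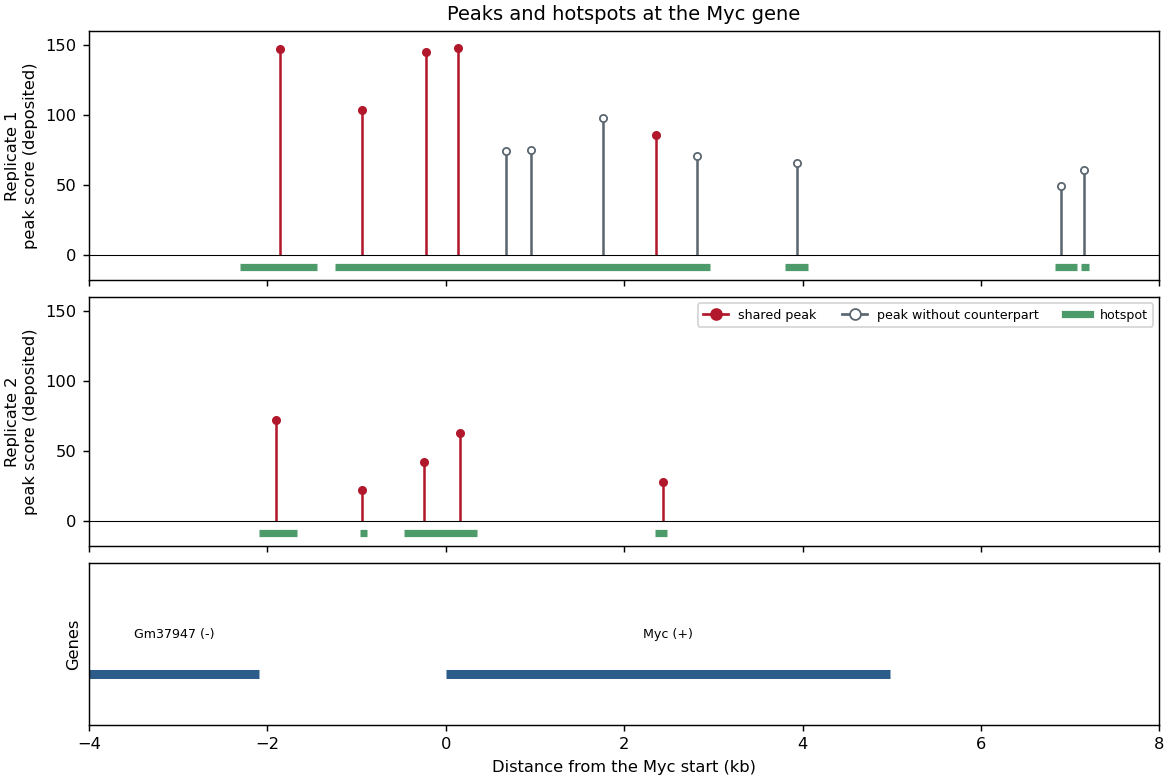
Peaks (stems, deposited score on the vertical axis) and hotspots (green bars) from -4 to 8 kb around the Myc start for replicate 1 and replicate 2, with genes below; filled heads are shared peaks. Replicate 1 has 1 hotspot of 4205 bp over the gene's 5′ part, where replicate 2 has separate short ones, the longest of 814 bp.

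The Myc promoter was of middling rank among open promoters. Of 21755 protein-coding genes on autosomes and X, 12658 (58.2%) had a shared promoter peak, and Myc ranked 7419 among them by the mean percentile of its strongest one. A value as high or higher was found for 58.7% of these genes. The scores of Myc, 148 and 63, were matched exactly by 8 other genes, of which Grn, Ints4, Mrps21, Srrt and Tgif1 come first in the alphabet. Identical scores are a description over 2 lists and many genes tie.

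Pvt1, a long noncoding RNA gene beside Myc that extends over 340.1 kb, held 26 peaks of replicate 1 and 7 of replicate 2, and 7 of those 26 were shared. These counts leave out the window across its start. That window, 52.6 kb from Myc, scored 98 in replicate 1 and 22 in replicate 2. A stronger window at 192.5 kb (chr15:62177836-62177985), at the start of an internal Pvt1 transcript, scored 141 and 39. An intronic window at 71.2 kb scored 135 and 34, and one at 266.9 kb scored 129 and 22. The remaining shared windows of Pvt1, at 121.3, 196.3, 239.0 and 366.2 kb, scored 70 to 98 in replicate 1 and 12 to 19 in replicate 2. Just past the gene, an intergenic window at 416.0 kb scored 113 and 19. Pvt1 thus had scattered shared sites, of which the strongest in replicate 2 lay at an internal start.

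Replicate 1 also had its longest run of windows near Myc. With gaps of up to 10 kb joined and promoter windows left out, 21 of its peaks formed a chain of 85.05 kb from -10.2 to 74.9 kb. Of these 3 were shared. The strongest window of the region without a counterpart, scored 130, was in this chain at 14.4 kb (chr15:61999716-61999865).

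Sites were sparse in the middle of the region. Between 450 and 850 kb replicate 1 had 15 peaks, with scores of 29 to 99, and replicate 2 had none. Between 1000 and 1500 kb replicate 1 had 16 peaks, with scores of 30 to 54, and again replicate 2 had none. These limits were set after the bins were seen. The stretch between them held 3 shared windows, at 885.9, 904.6 and 985.4 kb, with replicate 1 scores of 122, 104 and 99 and replicate 2 scores of 23, 13 and 14. The single replicate 2 peak of the region without a counterpart lay just beyond the first of them, at chr15:62871476-62871625, with a score of 17, inside a replicate 1 hotspot.

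The far downstream group began at 1500 kb. From there to 1800 kb replicate 1 had 43 peaks and replicate 2 had 13, and 12 replicate 1 windows were shared. Per 100 kb that was 14.3 peaks in replicate 1 and 4.33 in replicate 2, against 10.5 and 2.73 from 100 kb upstream to 450 kb downstream of Myc and 20 and 4 from 1800 to 2000 kb. The 12 shared windows had a median replicate 1 score of 126, against 72 for the 31 unshared ones, and the 13 replicate 2 peaks had a median of 36. Of the 12, 9 lay in introns of Gm41335, a long noncoding RNA gene of 541.5 kb on the minus strand (chr15:63176838-63718289) whose own starts had no peak in either list.

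The strongest far site was the window at 1719.5 kb printed above. It scored 148 in replicate 1 and 68 in replicate 2, with a mean percentile of 92.1, so it ranked above the Myc promoter window in the average of both lists. As high a mean percentile or higher was found for 1108 of 42117 shared peaks outside promoters in the genome (2.63%). This window was picked as the highest of the far ones, so that share does not show it to be rare. Its hotspots, of 1367 bp in replicate 1 and 484 bp in replicate 2, both carried the ceiling value of 100. It lies in an intron of Gm41335.

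Some other far sites ranked less far apart in the 2 lists than the window at 1617.9 kb. The window at 1736.5 kb, in an exon of the noncoding gene 4930449C09Rik, scored 107 in replicate 1 and 44 in replicate 2. The window at 1755.4 kb, at the start of the noncoding gene Gm41336, scored 109 and 51. The window at 1667.3 kb scored 105 and 43. Within their lists these 3 stood at percentiles 75.7, 76.9 and 74.4 in replicate 1 and 65.5, 73.8 and 64.1 in replicate 2, whereas the window at 1617.9 kb stood at 86.5 and 46.4.

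The shared windows at 1617.9, 1626.0 and 1631.6 kb formed the widest group of 3 after joining gaps of up to 10 kb. They scored 126, 139 and 127 in replicate 1 and 33, 36 and 25 in replicate 2. Their span of 13.83 kb held 8 replicate 1 peaks in all. None of the 3 had a replicate 2 hotspot at the ceiling, where values were 3.05, 4.24 and 1.49 in −log10 q, although all 3 replicate 1 hotspots were at 100. Further in, the window at 1663.0 kb scored 140 in replicate 1 and overlapped a pair of replicate 2 peaks scored 28 and 26. The window at 1680.3 kb scored 126 and 25. At the near edge, windows at 1512.0 and 1513.3 kb scored 118 and 129 in replicate 1, and 36 and 21 in replicate 2.

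The last site before the gasdermin genes, at 1786.4 kb, had the lowest replicate 1 score of the 12, 84, with 36 in replicate 2. It was intergenic, and the only one of the 34 shared replicate 1 windows outside promoters with the CTCF core. The shared replicate 2 window at -1.9 kb also held that core. CTCF is the zinc finger protein that anchors chromatin loops.

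**Figure D3:**
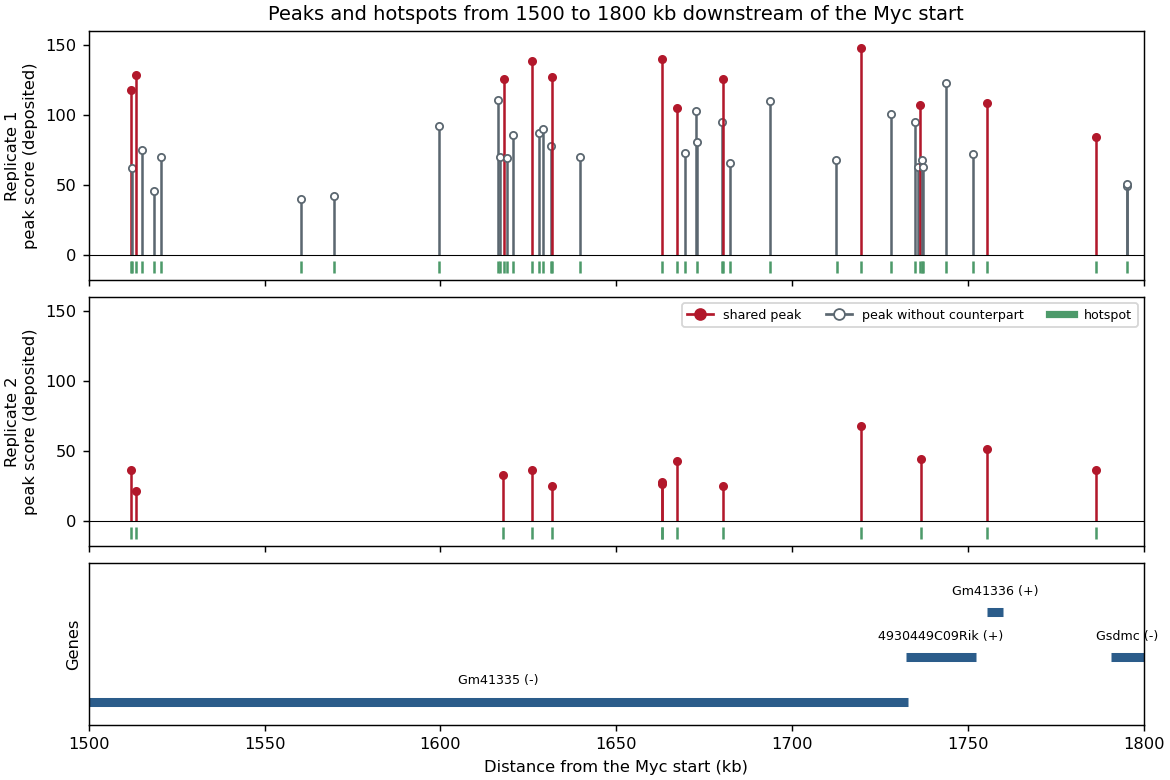
Peaks (stems, deposited score on the vertical axis) and hotspots (green ticks at their centres) from 1500 to 1800 kb downstream of the Myc start, for replicate 1 and replicate 2, with genes below; filled heads are shared peaks. Every replicate 2 peak has a counterpart, the highest in both lists at 1719.5 kb with scores of 148 and 68.

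Strong windows of replicate 1 without a counterpart also lay here. One scored 123, among the 3 highest of the region without a counterpart, was at 1743.7 kb in an intron of 4930449C09Rik (chr15:63729036-63729185). Another, scored 124, lay beyond the gasdermin genes at 1984.4 kb in an intron of Fam49b. None of the 145 unshared replicate 1 peaks of the region overlapped a replicate 2 hotspot.

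Counted in bins of 50 kb from the Myc start, 35 of 42 bins held a replicate 1 peak and 21 a replicate 2 peak. A shared peak outside promoters was found in 20 of 42 bins (47.6%), against 36.6% of 52665 bins of the genome. The fullest bin, from 1900 to 1950 kb, had 4 such peaks, a number reached in 5.7% of all bins. That bin was picked as the highest of 42, so the share of single bins does not show it to be rare. The same bin also had 25 peaks in replicate 1 and 3 in replicate 2. The bins from 1600 to 1650, from 1650 to 1700 and from 1800 to 1850 kb followed with 3 shared each, the last of them within Gsdmc2. Of the 16 bins that lie 500 kb or more from every protein-coding start, 3 held a shared peak (18.8%), against 2.6% of 6009 such bins of the genome. Those 3 were the bins with the windows at 885.9, 904.6 and 985.4 kb, while the far group lies within 500 kb of the gasdermin starts and so outside this set.

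**Figure D4:**
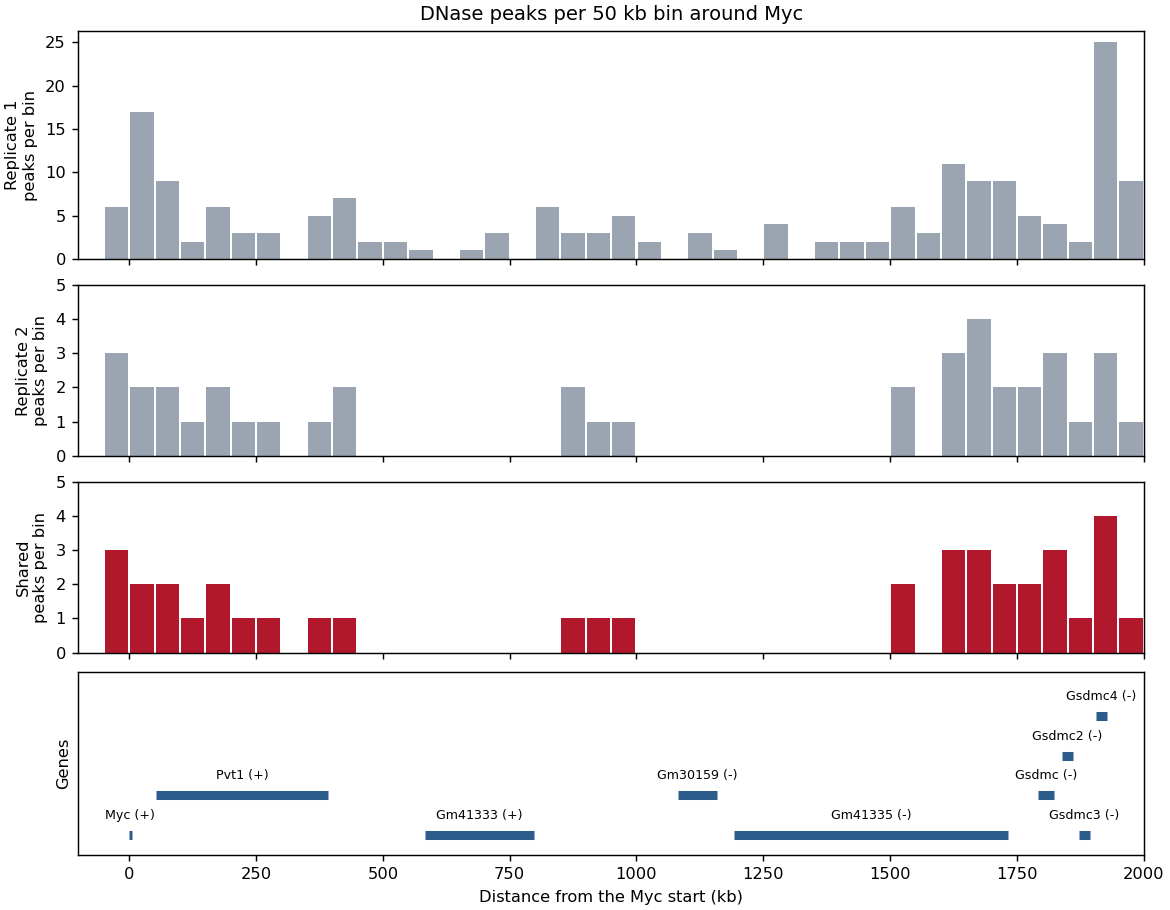
Number of peaks per 50 kb bin by distance from the Myc start, for replicate 1, replicate 2 and the shared set, with genes of the region below; the vertical scale of replicate 1 differs from the other panels. Shared peaks fall near Myc and Pvt1, in 3 bins between 850 and 1000 kb, and from 1500 kb on.

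The gap between Myc and Gsdmc is 1785.59 kb without another protein-coding gene. It held 24 shared peaks, or 13.4 per Mb, and ranked 14 among 270 such gaps of 1 Mb or more, so that 5.19% had as many per Mb. The median gap had 1.22 per Mb and the richest 30.8. All replicate 1 peaks, shared ones included, stood at 71.7 per Mb, against a median of 7.55.

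Downstream of the far group lie the gasdermin genes Gsdmc, Gsdmc2, Gsdmc3 and Gsdmc4, members of a family of pore-forming proteins that act in cell death. None of the 4 had a promoter peak in either list. Their introns nevertheless held shared windows. In Gsdmc2, windows overlapping at 1843.3 and 1843.4 kb scored 74 and 81 in replicate 1 and 26 in replicate 2, and one at 1843.8 kb scored 87 and 31. In Gsdmc3, a window at 1876.8 kb scored 83 and 23. In Gsdmc4, a window at 1910.4 kb scored 112 and 34, and an overlapping pair at 1910.7 and 1910.8 kb scored 72 and 95 in replicate 1 and 28 in replicate 2.

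The 3 genes are tandem copies, and the windows fall at matching places in each. One window of each gene is printed because these 3 are near copies of each other. Capitals in the Gsdmc3 and Gsdmc4 windows mark bases that differ from the Gsdmc2 window or fall outside the alignment.
Gsdmc2 intron, chr15:63828676-63828825: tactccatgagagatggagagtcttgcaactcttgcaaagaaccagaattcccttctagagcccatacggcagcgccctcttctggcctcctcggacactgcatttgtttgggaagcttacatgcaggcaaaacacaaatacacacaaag
Gsdmc3 intron, chr15:63862096-63862245: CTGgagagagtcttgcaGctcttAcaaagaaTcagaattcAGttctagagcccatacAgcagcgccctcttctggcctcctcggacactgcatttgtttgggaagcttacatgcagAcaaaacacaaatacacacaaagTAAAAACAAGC
Gsdmc4 intron, chr15:63895676-63895825: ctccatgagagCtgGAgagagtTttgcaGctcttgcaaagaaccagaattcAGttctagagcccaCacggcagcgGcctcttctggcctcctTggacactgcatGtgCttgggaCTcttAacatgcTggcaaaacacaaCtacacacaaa
Against the Gsdmc2 window, 129 of 139 aligned bases were identical in Gsdmc3 (92.8%) and 133 of 147 in Gsdmc4 (90.5%), and the windows start 33.42 and 67 kb farther on. The windows at 1843.8 and 1910.8 kb likewise shared 126 of 139 bases (90.6%), while Gsdmc3 had no second window in either list. No source used here says how reads that match several copies were assigned, so the values of single copies are uncertain, and with them the count of 4 in the fullest bin.

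Past Gsdmc4, a window at 1939.3 kb (chr15:63924636-63924785) scored 135 and 37, in a replicate 1 hotspot of 1261 bp. Replicate 1 had 14 peaks in a chain of 23.05 kb around it, of which it was the only shared one. The last shared window, at 1968.1 kb in an intron of Fam49b, a gene whose product restrains Rac-driven actin remodeling, scored 93 and 19.

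All region peaks lay in a hotspot of their own list. Of the 183 peaks of replicate 1, 37 also lay in a replicate 2 hotspot, against 27.1% of the whole list. All 40 peaks of replicate 2 lay in a replicate 1 hotspot, against 98.8%. The region had 166 hotspots in replicate 1, covering 56.8 kb or 2.70% of it, against 3.23% of the genome. In replicate 2 it had 38, covering 8.83 kb or 0.421%, against 0.752% of the genome. Of these hotspots 34 in replicate 1 (20.5%, against 26.2% of all) and 38 in replicate 2 (100%, against 98.7% of all) overlapped one of the other list. The value of 100 was reached by 65 hotspots of replicate 1 and 13 of replicate 2. The region was thus covered somewhat less than the genome average in both replicates, with its sites drawn together in the stretches named above.

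The sequence of the 34 shared windows outside promoters, at their replicate 1 coordinates, was searched for exact letters on both strands. MYB sites (TAACNG), the proto-oncogene factor of blood progenitors, were in 6 of 34 (17.6%), against 15.6% of all 42117 shared peaks outside promoters. C/EBP sites (TTGCNNAA), read by granulocyte factors, were in 5 (14.7%), against 12.7%, and MEIS sites (TGACAG), read by HOX cofactors, in 5 (14.7%), against 12.7%. RUNX sites (TGTGGTT) were in 3 (8.82%), against 7.84%, and the GC box (GGGCGG) in 3 (8.82%), against 8.09%. These shares lay close to those of all shared peaks outside promoters.

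Single windows held a PU.1-type ETS site (GAGGAAGT; 2.94%, against 7.48%), AP-1 (TGAGTCA; 2.94%, against 6.41%), STAT5 (TTCNNNGAA; 2.94%, against 4.14%), HOX9/PBX (TGATTTAT; 2.94%, against 0.798%) and the CTCF core (2.94%, against 10.2%). None of these windows held the letters read by GATA factors (AGATAA, 5.36% of all; the replicate 2 window at 239.0 kb did), the generic ETS site (CCGGAAGT, 0.855% of all) or the E-box of Myc itself (CACGTG, 3.68% of all). Any of the 13 was found in 15 windows (44.1%), against 65.3% of all. That share depended on the windows used. It was 20 of 36 (55.6%) for all replicate 2 windows of the region outside promoters, shared or not. For those of replicate 1 it was 101 of 174 (58.0%). Of the 34 shared windows, several without a match are gasdermin intron copies or overlap each other, so they do not count as separate sequences. Shorter cores, chosen after the first counts were seen and contained in the longer ones, were in 11 windows for ETS (AGGAAG; 32.4%, against 35.7%) and in 5 for RUNX (TGTGGT; 14.7%, against 20.1%). The short CTCF core (AGNGGGCGC) was also chosen after the first counts were seen, and it is not contained in the longer CTCF core. It was in 4 windows (11.8%, against 5.17%). These were the window at 1667.3 kb, the Gsdmc3 window and the overlapping pair of Gsdmc2 windows, which hold the same letters. The Gsdmc4 copy has no match. A missing match says only that these letters are not in that window.

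**Figure D5:**
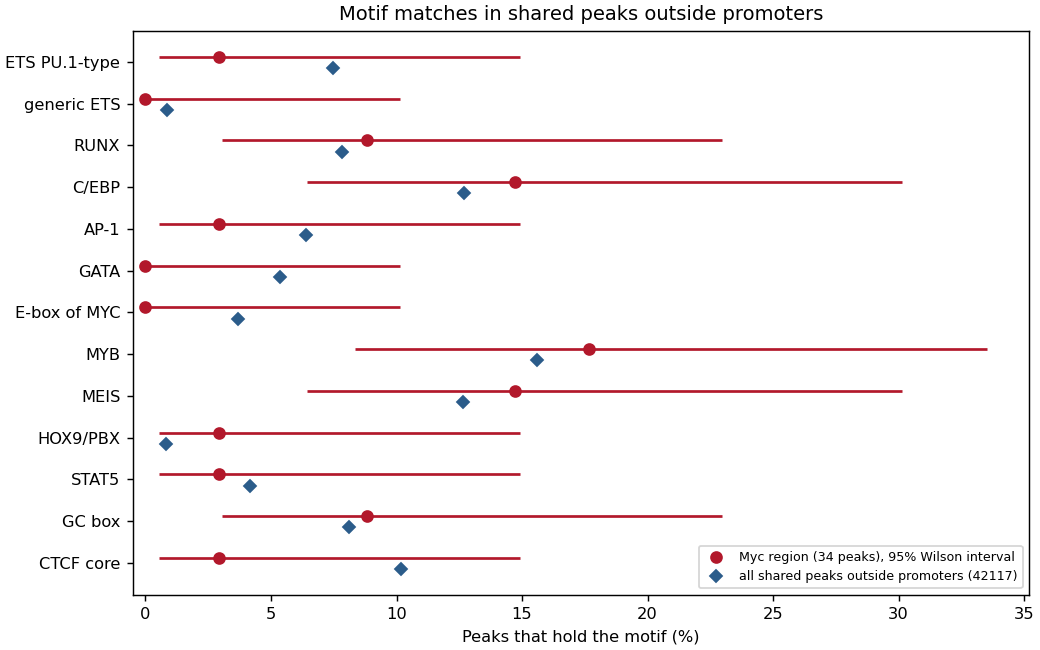
Percent of shared peaks outside promoters that hold each motif, for the 34 of the Myc region (circles, with 95% Wilson intervals) and for all 42117 (diamonds). MYB leads in both, at 17.6% and 15.6%, and the interval of the region contains the value of all peaks for each of the 13 motifs.

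Base composition differed little. The 34 windows had 33.3% to 76% GC with a median of 47.7%, against a median of 50.7% for all. Repeat-masked letters made up 50% or more of 2 windows (5.88%), against 8.21% of all. The median scores were 108 in replicate 1 and 27 in replicate 2, against 116 and 32. These sites were thus a little weaker than the usual shared peak outside promoters, apart from the few named.

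All 28 listed genes of the Myc network had a promoter peak in each list, and most of these peaks overlapped. Of 28 listed genes, 24 (85.7%) had a shared promoter peak, against 58.2% of all protein-coding genes. The highest were Usp28, a deubiquitinase that stabilizes Myc, with scores of 150 in replicate 1 and 109 in replicate 2, and Fbxw7, the ubiquitin ligase subunit that marks Myc for decay, with 150 and 107. Mxd1, which competes with Myc for Max, had 150 and 103, and the kinase gene Pim1 had 149 and 112. Max itself had 150 and 94, and Mycl had 100 and 45. The Myc promoter window, with 148 and 63, was thus lower in replicate 2 than those of Max and these 4 regulators.

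The other 4 had a promoter peak in each list but without overlap. They were Mycn, with best scores of 86 and 13, Ep400 with 150 and 103, Ruvbl2 with 148 and 93, and Gsk3b with 150 and 97. Mycn, the Myc paralog of embryonic and neural cells, was the weakest of the list in both replicates.

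Chromatin regulators reported at the far enhancers in leukemia were open throughout, with a shared promoter peak at 14 of 14 genes (100%), against 58.2% of all protein-coding genes. Smarca4, which encodes Brg1, scored 150 in replicate 1 and 108 in replicate 2, and its partner subunit genes Arid1a and Smarcd2 scored 150 and 102, and 150 and 93. Med1 of the Mediator complex had 148 and 92. Promoters of broadly expressed genes such as these are commonly open.

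Promoters of marker genes were examined for the label of the cells. Of 10 myeloid markers 9 (90%) had a shared promoter peak, against 58.2% of all protein-coding genes, and Elane, a neutrophil protease gene, had one in replicate 1 alone. None of the 3 T cell, 3 B cell, 2 mast cell, 2 hepatocyte and 2 fibroblast markers had a shared one. Of 2 neuron markers, Rbfox3 had a shared one (98 in replicate 1 and 33 in replicate 2) and Syt1 had none in either list.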

How the data were processed

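DNase-seq peaks and hotspots of 2 biological replicates were used as deposited, 1 list of each per replicate, made by the authors from 2 pooled libraries, per the deposited text files. No source used here gives the caller, its settings or the read depth. The score of a peak was deposited by the authors with no stated scale. The −log10 q of a hotspot was deposited by the authors and starts at a q of 0.05. In the region it rose to 6 and beyond that took only the value 100, so 100 is not read as a q of that size. Overlaps of 1 bp, bins of 50 kb, chains with gaps up to 10 kb, percentile ranks and exact motif matches were computed with Python 3.11.15, pandas 2.3.3, numpy 2.4.6 and pysam 0.24.0, and the scripts were tested on simulated data. The 48 repeated entries of replicate 1 and 5 of replicate 2 were counted once. The design gives 1 list per replicate, so shares are set beside those of the whole lists and no p-value is given. The region, gene lists and motifs were chosen with earlier results of these data known.

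Named were Myc, the protein-coding genes that start in the region, Pvt1, noncoding genes with a shared peak at a start or that hold a named peak, the 4 highest ranked members of each gene list, and members without a shared promoter peak. Named peaks were those at Myc starts, the strongest shared ones, those of the fullest bin and chain, and the strongest without a counterpart. The other shared peaks, and Max and Mycl, were added after their values were seen. Some listed genes are not reported here. Coordinates are 1-based on mm10, with genes from GENCODE M21.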

Additional observations from a re-analysis of the deposited data

How the results depend on the processing

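Of 55 alternatives tried for the counts and shares of the region, 40 left the value within the margin set for it and 15 moved it. With scores above the median of each list, shared peaks fell to 12, 100% of replicate 2 peaks were shared, the fullest bins held 2, and the first of them began at 1700 kb. With replicate 1 held to the length of replicate 2, there were 23 shared peaks, 65.7% of replicate 1 peaks and 62.5% of replicate 2 peaks were shared, and the fullest bin began at 1600 kb, level with the next. With a hotspot as the partner, 100% of replicate 2 peaks were shared. Bins of 100 kb placed the fullest at 1600 kb. With overlapping peaks of a list merged, an alternative chosen after seeing the data, 36 peaks were shared and the bins at 1600, 1650 and 1900 kb were level at 3. With one list alone, the start of the fullest bin ran from 1650 to 1900 kb, its count from 4 to 25, the peaks at Myc starts from 4 to 8, the chains from 25 to 50 and the largest chain from 3 to 21 peaks. The cause of these changes was not tested, except that merging joins windows that share bases. Of 39 alternatives for single motifs, 33 left the share within the margin and 6 moved it. No paired analysis was possible because each biological replicate has 1 pooled list and no test was run. Read depth is unknown, which limits how far a missing replicate 2 peak can be read.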
